A study of Mus musculus with 12 samples.

Results

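MAX regions of untreated RAW264.7 cells that were listed neither with RANKL nor with RANKL plus I-BET are described here. The 4 deposited MAX peak lists were merged into 37124 regions, of which 8492 were overlapped by a peak of untreated cells. A region was kept where such a peak was present and no peak of either RANKL list overlapped it, whether or not it was listed with I-BET alone. This left 1241 regions, 14.6% of the 8492. The regions were thus chosen by the deposited peak lists themselves, namely by listing in untreated cells and absence from both RANKL lists, and these are not results.

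Chromatin immunoprecipitation and sequencing (ChIP-seq) of MYC and MAX was done in RAW264.7, a mouse monocyte-derived line that becomes osteoclast-like when given RANKL. Cells of this 1 line received RANKL at 50 ng/ml for 4 h, I-BET at 500 nM for 4 h, RANKL and I-BET at these doses together for 4 h, or no treatment. I-BET is an inhibitor of BET bromodomain proteins. The labels also give bone marrow as the source and speak of replicates, but there was 1 list per antibody and treatment, so no difference between treatments has a replicate check and none carries a p-value. The MAX lists held 10889 peaks with RANKL, 36785 with I-BET, 6307 with RANKL plus I-BET and 8839 in untreated cells. MYC lists were shorter, with 299, 136, 11 and 312 peaks in that order. Read depth is unknown from these files, and the score printed below is the authors' own value for a peak, used only within its list. Rank 1 is the highest score. The label of a monocyte-derived line was set beside MAX listing at marker genes, which is not expression. Of 21887 protein-coding genes, 5236 had an untreated MAX peak at the start. Among 14 macrophage markers 7 had one, including Csf1r, Spi1 and Cd68, while Itgam, Adgre1, Irf8 and Cd14 were among those without. The count was 0 of 8 lymphocyte, 0 of 7 fibroblast and osteoblast and 0 of 7 neutrophil and dendritic cell markers. Counts this small do not settle the cell type.

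MAX is a basic helix-loop-helix leucine zipper protein that binds DNA only as a pair, whose partner can be a second MAX, MYC, or a protein of the MXD, MNT or MGA kind. Pairs with MYC are known for raising transcription of growth genes, whereas pairs with MXD, MNT and MGA are known for repression. The preferred site is the E-box CACGTG, and CACGCG is a variant that MYC and MAX also bind. TGACGTCA is the cAMP response element (CRE), the site of CREB and ATF factors. Absence from a peak list says that no peak passed the authors' calling there, not that MAX was absent from the DNA.

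The promoter sequences below are from gene starts that these peaks overlapped in part or in full. They are from RefSeq (GRCm38.p6, the assembly also called mm10), run 5′ to 3′ on the gene's own strand from 250 bases before to 50 bases after the start, and each overlaps an untreated MAX peak of a chosen region. Capitals mark these 3 motifs on either strand. Tmed9 is shown because it had the highest score at a protein-coding start and holds none of these motifs. Klc4, Rcan1 and the 3 promoters with 2 E-boxes each (Cln3, Arfgef2 and Vps33a) show the E-box, Myl6 shows the CRE, and Creb5 shows an E-box and a CRE that share bases.
Tmed9, chr13:55592885-55593184, plus strand: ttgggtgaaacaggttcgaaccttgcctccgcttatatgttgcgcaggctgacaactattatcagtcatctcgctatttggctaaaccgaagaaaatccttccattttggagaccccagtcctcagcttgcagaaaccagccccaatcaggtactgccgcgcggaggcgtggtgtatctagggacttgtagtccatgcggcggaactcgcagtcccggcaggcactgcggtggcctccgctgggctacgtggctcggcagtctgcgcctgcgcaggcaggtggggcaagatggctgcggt
Klc4, chr17:46646031-46646330, minus strand: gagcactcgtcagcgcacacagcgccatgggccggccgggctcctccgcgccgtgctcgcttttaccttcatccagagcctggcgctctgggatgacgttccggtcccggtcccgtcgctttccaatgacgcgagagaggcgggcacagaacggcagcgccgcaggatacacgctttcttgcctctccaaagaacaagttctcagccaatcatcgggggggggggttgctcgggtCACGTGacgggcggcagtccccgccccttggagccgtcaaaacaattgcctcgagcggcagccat
Cln3, chr7:126583187-126583486, minus strand: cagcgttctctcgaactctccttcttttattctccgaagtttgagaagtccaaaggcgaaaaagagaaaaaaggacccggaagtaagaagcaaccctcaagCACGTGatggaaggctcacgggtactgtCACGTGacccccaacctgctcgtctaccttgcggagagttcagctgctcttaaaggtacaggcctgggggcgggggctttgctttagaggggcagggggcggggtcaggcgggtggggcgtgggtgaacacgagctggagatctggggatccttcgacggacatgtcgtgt
Arfgef2, chr2:166805331-166805630, plus strand: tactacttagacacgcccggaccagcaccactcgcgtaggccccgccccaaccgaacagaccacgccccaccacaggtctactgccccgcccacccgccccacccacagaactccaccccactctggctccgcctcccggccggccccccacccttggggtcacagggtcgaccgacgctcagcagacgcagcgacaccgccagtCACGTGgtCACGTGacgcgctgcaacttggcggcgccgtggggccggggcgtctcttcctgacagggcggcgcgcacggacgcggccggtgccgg
Vps33a, chr5:123572966-123573265, minus strand: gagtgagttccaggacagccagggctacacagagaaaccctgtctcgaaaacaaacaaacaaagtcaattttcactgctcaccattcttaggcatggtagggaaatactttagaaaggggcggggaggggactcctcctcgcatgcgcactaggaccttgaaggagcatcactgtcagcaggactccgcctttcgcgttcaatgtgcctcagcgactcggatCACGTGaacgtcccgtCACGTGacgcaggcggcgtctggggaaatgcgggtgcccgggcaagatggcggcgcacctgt
Rcan1, chr16:92466120-92466419, minus strand: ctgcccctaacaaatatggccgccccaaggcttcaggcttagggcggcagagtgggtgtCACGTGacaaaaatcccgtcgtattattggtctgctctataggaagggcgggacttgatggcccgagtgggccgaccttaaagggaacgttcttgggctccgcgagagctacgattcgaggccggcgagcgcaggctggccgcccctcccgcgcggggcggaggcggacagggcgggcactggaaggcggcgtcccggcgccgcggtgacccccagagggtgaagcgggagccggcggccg
Creb5, chr6:53287053-53287352, plus strand: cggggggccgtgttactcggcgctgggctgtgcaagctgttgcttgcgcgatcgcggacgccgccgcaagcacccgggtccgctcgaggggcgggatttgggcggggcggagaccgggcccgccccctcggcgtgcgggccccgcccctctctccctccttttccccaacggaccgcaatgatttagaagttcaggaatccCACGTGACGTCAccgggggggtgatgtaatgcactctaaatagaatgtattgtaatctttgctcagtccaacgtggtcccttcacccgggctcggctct
Myl6, chr10:128493837-128494136, minus strand: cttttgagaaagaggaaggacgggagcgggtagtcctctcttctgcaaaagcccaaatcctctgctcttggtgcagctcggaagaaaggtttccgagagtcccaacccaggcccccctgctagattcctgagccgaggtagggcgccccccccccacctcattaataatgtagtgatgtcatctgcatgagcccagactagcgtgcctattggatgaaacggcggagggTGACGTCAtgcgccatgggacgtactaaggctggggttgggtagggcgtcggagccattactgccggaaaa
Tmed9 encodes a cargo receptor of the early secretory pathway, and Klc4 a kinesin light chain. Cln3 is a lysosomal membrane protein, Vps33a a subunit of the tethering complex for fusion with lysosomes, and Arfgef2 an exchange factor for ARF GTPases at the trans-Golgi. Rcan1 is an inhibitor of calcineurin, the phosphatase upstream of NFATc1. Creb5 is a factor of the CREB and ATF group, and Myl6 a myosin light chain. The distance of the first motif base from the start was -15 in Klc4, -191 in Rcan1, -149 and -121 in Cln3, -45 and -37 in Arfgef2 and -28 and -12 in Vps33a. In Creb5 the E-box began at -49 and the CRE at -45, and in Myl6 the CRE began at -21. The CRE of Myl6 lay outside the untreated MAX peak (128494002 to 128494234), which overlapped only the part of the window farther upstream.

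Most of the 1241 regions came from the weaker part of the untreated list. Their scores ran from 51 to 264 with a median of 99, against a median of 150 in the other 7251 untreated regions. The median rank was 6910 of 8839, and the best-placed region stood at rank 1137. The share of untreated regions that were in neither RANKL list was 0% in the first decile of the list, 9.56% in the fifth and 38.7% in the last. Untreated peaks of these regions were also narrower, with a median of 357 bp against 465 bp in the others. These values belong to the same contrast as the choice of the regions and are given as a description.

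**Figure D1:**
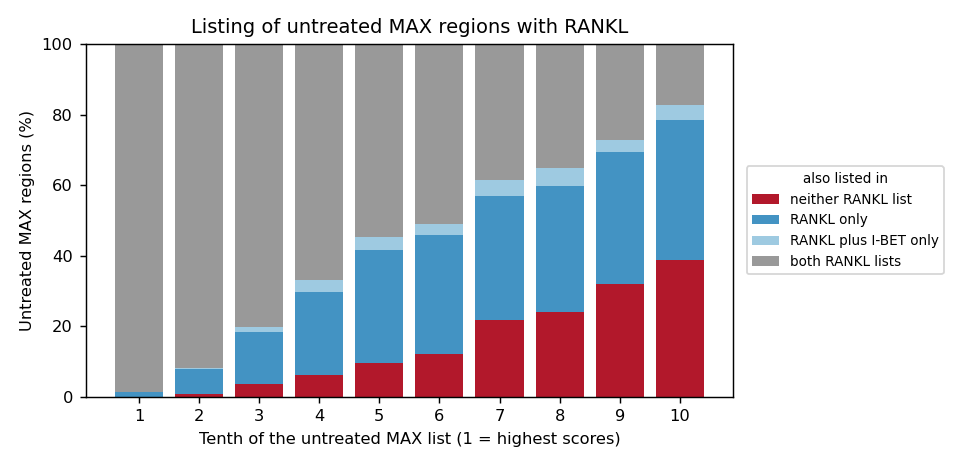
Share of untreated MAX regions (%) by decile of the untreated list, from the highest scores (1) to the lowest (10), split by listing with RANKL. Regions in neither RANKL list made up 0% of the first decile and 38.7% of the last, where 17.3% were in both RANKL lists.

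The 7251 other untreated regions form 3 classes: 2189 listed with RANKL but not with the combination, 243 listed with the combination but not with RANKL, and 4819 listed with both. The 243 and the 1241 are alike in being absent with RANKL alone. Regions of 1 library are not replicates, so shares below carry exact Clopper-Pearson 95% intervals for counting error only, and no test between classes was run.

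Position relative to genes was not used in choosing the regions. An untreated peak lay within 1 kb of the start of a protein-coding gene in 424 of the 1241 regions (34.2%, 31.5 to 36.9). In the classes listed with RANKL only, with the combination only and with both the shares were 48.7%, 45.7% and 63.1%. Another 418 of the 1241 (33.7%, 31.1 to 36.4) lay inside a protein-coding gene away from its ends, against 25.4% with RANKL only (23.6 to 27.3), 27.2% with the combination only (21.7 to 33.2) and 18.1% with both (17.0 to 19.2). A further 98 (7.90%, 6.46 to 9.54) were farther than 10 kb from any annotated gene, against 6.17% (5.20 to 7.26), 8.23% (5.10 to 12.4) and 4.00% (3.47 to 4.60) in the same order. For both positions the interval overlapped that of the class with the combination only, and for distant regions also that of the class with RANKL only.

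Score moved with the class, so position was also counted among peaks below the median score. There, 370 of 1068 regions in neither RANKL list lay at a protein-coding start (34.6%, 31.8 to 37.6), against 51.2% of 1513 listed with RANKL only, 50.0% of 170 listed with the combination only and 63.1% of 1415 listed with both (60.5 to 65.6). Among peaks above the median score the share was 54 of 173 (31.2%, 24.4 to 38.7), against 63.1% of 3404 in both lists. With RANKL only it was 42.9% of 676 there (39.1 to 46.7), an interval above that of the chosen regions. The share at gene starts was below that of regions in both RANKL lists in each part of the score range, while above the median score the intervals overlapped those of the class with the combination only (35.6%, 24.7 to 47.7). Starts came from RefSeq for 17492 genes, and both annotated ends stood in for the start in 4395 genes.

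**Figure D2:**
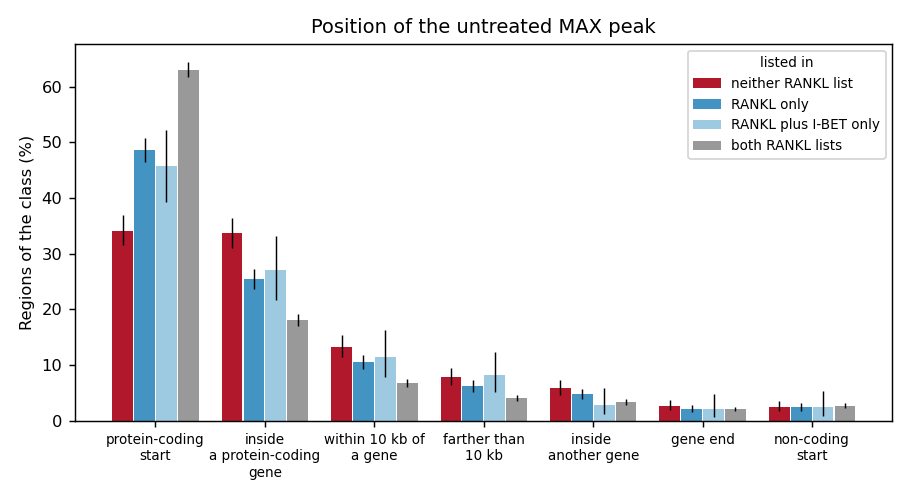
Position of the untreated MAX peak for 4 classes of untreated regions, as a percentage of the class with exact 95% intervals (bars and lines). Regions in neither RANKL list had the lowest share at protein-coding starts (34.2%) and 33.7% inside protein-coding genes, where the interval overlapped that of regions with the combination only (27.2%).

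The highest scores among the 1241 were mostly away from gene starts, as were the 1241 as a whole (34.2% at a protein-coding start). Of the 15 with the highest scores, an extra set chosen after the values were seen, 3 lay at a protein-coding start. The first, on chromosome 17 (8199095 to 8199531), lay within 10 kb of a gene and had score 264 and rank 1137, with rank 7684 of 36785 with I-BET. Others lay inside Ccnd2 (cyclin D2, rank 1597), Gdpd5 (1642), Thada (1723), Plcb4 (phospholipase C beta 4, 1849) and Magi1 (a scaffold protein of cell junctions, 1858). All of these were listed with I-BET, at ranks 10286, 13618, 19413, 17557 and 18443. The region second in score, on chromosome 15 (67272434 to 67272755), lay inside a gene that does not code for protein and was not listed with I-BET.

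At protein-coding starts the highest untreated scores belonged to Tmed9 and Tomm7. Tmed9 on chromosome 13 (55592925 to 55593323) ranked 4184 of 36785 with I-BET and 1409 of 8839 in untreated cells. Tomm7, a small subunit of the mitochondrial outer membrane translocase on chromosome 5 (23843939 to 23844310), ranked 1117 with I-BET and 1708 in untreated cells. Neither gene had a MAX peak at its start in the RANKL or the combination list. The start shared by Abhd17b, a protein depalmitoylase, and 1110059E24Rik ranked 9485 with I-BET and 1812 in untreated cells. Ypel5, a partner of a ubiquitin ligase complex, ranked 2379 with I-BET and 2467 in untreated cells. Its nearest peak of a RANKL list was 427 bp from the region, so MAX was listed nearby.

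Next by untreated score came Rnd2, Selenok (a selenoprotein of the endoplasmic reticulum), Ergic3 with 6430550D23Rik (Ergic3 is a membrane protein cycling between endoplasmic reticulum and Golgi), Rufy1 (an endosomal protein), Rbm6 (an RNA-binding protein), Klc4 with Mrpl2 (a mitochondrial ribosomal protein) and 1110004F10Rik. Their untreated ranks ran from 2543 to 2739. Zc3h3, Dbt (a subunit of the branched-chain keto acid dehydrogenase), Grm8 (a glutamate receptor), Kat7 (a histone acetyltransferase), Rabgef1 (an exchange factor for Rab5), Trir and Rps16 (a ribosomal protein) followed at ranks 2899 to 3067. Zxdc, Gins3 (a subunit of the replicative helicase), Socs7, Ctsk, Cmpk1 (a pyrimidine nucleoside monophosphate kinase), Rtca (an RNA cyclase) and Mrps17 (a mitochondrial ribosomal protein) closed the 25 at ranks 3096 to 3378. All 25 were also listed with I-BET.

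Ctsk encodes cathepsin K, the main collagen-degrading protease of osteoclasts. Its region on chromosome 3 (95497682 to 95498222) ranked 20776 of 36785 with I-BET and 3131 of 8839 in untreated cells. That was the lowest I-BET rank among the 25.

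**Figure D3:**
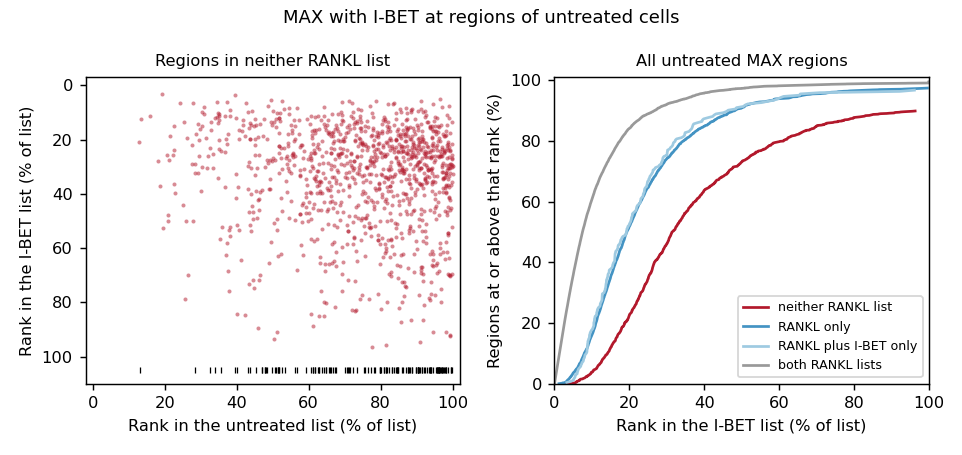
Left: rank in the I-BET list against rank in the untreated list, each as a percentage of its list, for regions in neither RANKL list (points), with the 126 not listed with I-BET as ticks at the bottom. Right: cumulative share of each class of untreated regions by rank in the I-BET list; 89.8% of the regions in neither RANKL list were listed there at all, against 99.4% of those in both.

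Listing with I-BET was no condition of the choice, but I-BET peaks took part in the merging and could join an untreated peak to a peak of a RANKL list. Without them in the merging 1325 regions were chosen in place of 1241. Counted over single untreated peaks that overlapped no peak of either RANKL list, 1199 of 1325 overlapped an I-BET peak (90.5%). Over the merged regions the I-BET list held 1115 of the 1241 regions (89.8%, 88.0 to 91.5), against 97.4% of all untreated regions. By class the other shares were 97.4% with RANKL only, 96.7% with the combination only and 99.4% with both. The I-BET list is the longest of the 4, so ranks within it are given too. Regions in neither RANKL list that it held had a median rank of 10817 of 36785, against 6955.5 with RANKL only, 6731 with the combination only and 2734 with both. Among as many top I-BET peaks as the untreated list holds, 398 of the 1241 were found (32.1%, 29.5 to 34.7), against 62.4%, 63.8% and 88.4% of the other classes. Peaks with I-BET were wider than the untreated peak by a median factor of 1.75, against 1.86 for regions in both RANKL lists.

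Listing with I-BET went with position among the 1241. At protein-coding starts 420 of 424 regions were listed with I-BET (99.1%, 97.6 to 99.7). This was not particular to them. Counted over genes, 5234 of 5236 with an untreated MAX peak at the start had an I-BET MAX peak there. Shares by position were not counted for the other classes. Inside protein-coding genes it was 358 of 418 (85.6%, 81.9 to 88.9), and farther than 10 kb from a gene 73 of 98 (74.5%, 64.7 to 82.8). The 126 regions found in untreated cells alone thus had 4 at a protein-coding start (3.17%, 0.872 to 7.93) and 25 farther than 10 kb from a gene (19.8%, 13.3 to 27.9). For the 1115 also listed with I-BET these shares were 37.7% and 6.55%. The median untreated rank was 7117 in the 126 and 6892 in the 1115.

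The highest-scoring of the 126 was the region on chromosome 15 named above, with rank 1166. Next stood regions on chromosome 13 (82949540 to 82949875, rank 2512) and chromosome 14 (50997106 to 50997456, rank 3003), both farther than 10 kb from a gene. Regions inside Wdr7 (rank 2885) and inside Myt1l (rank 3143), a neuronal zinc finger gene, completed the first 5. Of the regions farther than 10 kb from a gene, the highest score belonged to chromosome 5 (148492926 to 148493297), at rank 8773 with I-BET and 1991 in untreated cells. Those on chromosome 1 at 37561899 and at 128712875 ranked 14372 and 7112 with I-BET and 2652 and 2786 in untreated cells.

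MYC lists were not used in the choice. An untreated MYC peak overlapped 6 of the 1241 regions (0.483%, 0.178 to 1.05), against 3.39% of all untreated regions. The share was 0.137% with RANKL only (0.0283 to 0.400), 0% of 243 regions with the combination only (up to 1.51) and 5.79% with both RANKL lists (5.15 to 6.49), so the interval of the chosen regions overlapped those of the classes missing from 1 RANKL list and lay below that of the class in both. The same 6 regions had a MYC peak in the RANKL list and in the I-BET list, and none in the list of the combination. In the class with both RANKL lists, 5.54% had a MYC peak with RANKL (4.91 to 6.22). With I-BET it was 19 regions of that class (0.394%, 0.238 to 0.615), against 279 in untreated cells. That I-BET interval overlapped the one of the chosen regions. The 6 regions lay inside Cdk8 (a Mediator kinase), Zc3h7a, Peak1 and Cmss1 with Filip1l, on chromosome 6 (3201026 to 3201412) and on chromosome Y (90761299 to 90761769). None of the 6 was at a protein-coding start, whereas all 6 were in the I-BET list of MAX.

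These 6 regions kept a MYC peak with RANKL, while the absence of a RANKL MAX peak there was set by the rule. Of the 299 RANKL MYC peaks, 19 overlapped no RANKL MAX peak. The 6 here are among the 19 because of the rule, so that count is no result. The MYC peak inside Zc3h7a ranked 13 of 299 with RANKL, 100 of 136 with I-BET and 6 of 312 in untreated cells, while its untreated MAX rank was 6966. Inside Cmss1 the MYC ranks were 20, 104 and 11 in the same order, and the MAX rank was 7294. Inside Cdk8 they were 40, 89 and 46, with MAX at 2737. The region on chromosome 6 held 4 separate MYC peaks with I-BET, each between 82 and 97 bp wide. Input libraries were not used here, so the part of reads that pile up without an antibody was not tested.

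Of 5236 protein-coding genes with an untreated MAX peak at the start, 480 had a region of neither RANKL list there (9.17%). In 445 of them (8.5% of the 5236) no MAX peak of the RANKL or the combination list lay at the start. Nor did the highest-scoring untreated peak of any untreated region outside the chosen ones. A further chosen region at the same start was not excluded. The other 35 kept a peak: at Atp6v1a (a subunit of the proton pump of lysosomes) with RANKL, and at Derl1 and Atf6, both of the stress response of the endoplasmic reticulum, with RANKL and with the combination. With I-BET, 444 of the 445 genes had a MAX peak at the start, against 5234 of all 5236 (100% to 3 digits), so this count is at the background. A start was shared by more than 1 gene in 61 of the 424 regions (14.4%).

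Gene lists were counted among genes with an untreated MAX peak at the start and read against the 9.17% of all such genes. Respiratory chain subunits had 6 of 19 (31.6%, 12.6 to 56.6), among them Ndufa6, Ndufs4 and Ndufa5 of complex I and Cox5b of complex IV. All 6 were left without a MAX peak at the start in either RANKL list. With I-BET all 53 genes of the list had one, counting also those without an untreated MAX peak. This was not particular to the list. The same count was 49 of 49 for trafficking, 45 of 49 for NF-kB and inflammation and 45 of 53 for osteoclast and RANK signalling. The untreated ranks of the 6 respiratory chain genes were low, from 5113 for Ndufa6 to 8107. Trafficking between endoplasmic reticulum and Golgi had 4 of 26 (15.4%, 4.36 to 34.9), namely Tmed9, Ergic3, Copg1 (a coat protein of COPI vesicles, rank 3701) and Ergic2 (rank 7563). NF-kB and inflammation had 3 of 22 (13.6%), with Myd88 (the adaptor of Toll-like receptors, rank 6363), Chuk (the kinase IKK alpha, rank 6578) and Relb (rank 8268). Osteoclast and RANK signalling genes had 2 of 16, Ctsk and Rcan1. Of the lists in this paragraph, only the interval of the respiratory chain left out 9.17%. With 24 lists side by side and none tested, that is a description of 19 genes.

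The remaining lists ran between 0% and 22.2%. Ribosome biogenesis had 0 of 45, splicing and RNA processing 0 of 41, chromatin and BET genes 0 of 29, oxidative stress and metal transport 0 of 28 and the MYC and MAX network 0 of 8. The exact upper limits for these counts are 7.87%, 8.60%, 11.9%, 12.3% and 36.9%, of which the first and the second lie below 9.17%. Ribosomal proteins had 2 of 58 (3.45%, 0.420 to 11.9), Rps16 and Rps15. Glycolysis and nucleotide synthesis had 1 of 41 (Taldo1), translation factors and tRNA synthetases 1 of 37 (Aars), and lysosome and autophagy 1 of 30 (Atp6v1a). Mitochondrial import and ribosome genes had 3 of 38, Tomm7, Timm23 and Mrpl37. Ubiquitin and proteasome genes had 3 of 24 (Ube2d1, Psmc6 and Psmc4), and protein folding and stress of the endoplasmic reticulum 3 of 24 (Selenok, Derl1 and Atf6). Apoptosis had 2 of 9 (22.2%, with a lower limit of 2.81%), Casp2 and Diablo, and sterol and lipid synthesis 2 of 22 (Mvk and Scd1). The remaining 6 lists had 1 gene each: Lyz2 of 16 macrophage genes, Tyk2 of 11 interferon and antigen presentation genes, Csnk1d of 13 clock genes, Ier5 of 21 MAPK and immediate early genes, Xrcc1 of 25 DNA repair and p53 genes, and Mcm5 of 28 cell cycle and replication genes.

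**Figure D4:**
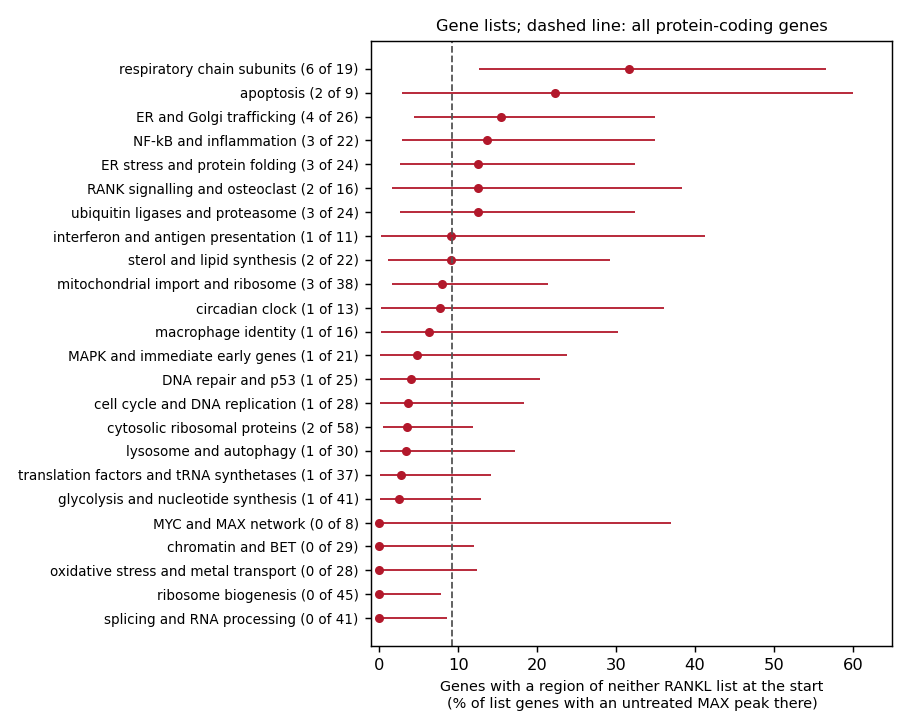
Share of list genes with an untreated MAX peak at the start that had a region of neither RANKL list there (points, with exact 95% intervals), for 24 lists. The dashed line marks 9.17%, the share over all protein-coding genes; respiratory chain subunits had 31.6%, and 5 lists had 0 genes.

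The letters under the peaks were compared through the RefSeq promoter windows of 300 bases, the only sequence used here. An untreated peak of the chosen regions overlapped 407 such windows of 362 genes. CACGTG occurred in 35 of the 407 (8.60%, 6.06 to 11.8), against 10.4% of 1091 windows under regions with RANKL only, 16.7% of 108 with the combination only, and 21.9% of 3277 with both RANKL lists (20.5 to 23.4). Of all 32851 windows 7.15% held it. The planned count was over 538 promoter windows of genes with a chosen region at the start, and 40 of these held CACGTG (7.43%, 5.36 to 9.99). CACGCG was found in 16.0% of the 407 windows (12.5 to 19.9). The shares of the other classes were 21.5%, 16.7% and 30.6% in the same order, with 9.27% of all windows. At like CpG content it was not above all windows, with 10.3% against 10.3% at 10 to 19 CpG, 15.2% (10.2 to 21.5) against 21.6% at 20 to 29 and 28.7% (19.9 to 39.0) against 32.6% at 30 or more. Windows under the chosen regions held a median of 22 CpG, against 26 in windows under regions in both lists and 7 in all windows. Within windows of 20 to 29 CpG the share with CACGTG was 13 of 171 (7.60%, 4.11 to 12.6), against 23.7% in both lists (21.4 to 26.2), 8.25% with RANKL only and 11.7% of all windows.

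Counted per length, inside the peaks alone, CACGTG occurred 33 times in 77.8 kb under the chosen regions, or 0.424 per kb (exact Poisson 95% interval 0.292 to 0.596). It occurred 0.458 times per kb under regions with RANKL only, 0.992 under regions in both RANKL lists (0.921 to 1.07) and 0.253 in all windows. Below the median score the values were 0.415 (0.276 to 0.600) under the chosen regions and 0.615 (0.511 to 0.734) under regions in both lists, and these intervals overlap. Regions with RANKL only had 0.308 (0.228 to 0.407) there, so per length the chosen regions lay between these classes with overlapping intervals. By share of windows below the median score, CACGTG was in 28 of 353 under the chosen regions (7.93%, 5.34 to 11.3). Under regions in both lists it was in 127 of 936 (13.6%, 11.4 to 15.9), an interval above that of the chosen regions. The intervals with RANKL only (55 of 786, 5.31 to 9.01) and with the combination only (12 of 80) overlapped that of the chosen regions.

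TGACGTCA was in 25 of the 407 windows (6.14%, 4.01 to 8.93), against 4.03%, 2.78% and 3.57% of windows under regions with RANKL only, with the combination only and with both, and 1.79% of all windows. In windows of 20 to 29 CpG it was in 7.02% (3.68 to 11.9), against 4.11% of all windows, a value within that interval. At 10 to 19 CpG it was in 2.80% (0.582 to 7.98), against 2.63% of all windows. At 30 or more CpG it was in 9 of 94 (9.57%, 4.47 to 17.4). All windows had 3.49% there, below that interval, and windows under regions in both lists 3.98% (2.97 to 5.21), which overlaps it. Inside the peaks it reached 0.180 per kb (0.0984 to 0.302), against 0.132 under regions in both lists (0.107 to 0.161), with overlapping intervals, and 0.0561 in all windows. TGANTCA, the AP-1 site, was in 6.14% of windows, against 3.42% under regions in both lists and 7.81% of all windows. Inside the peaks it occurred 0.257 times per kb (0.157 to 0.397), against 0.153 with RANKL only (0.106 to 0.213), 0.119 in both lists (0.0954 to 0.147) and 0.282 in all windows. GGGCGG, an Sp1 site, was in 63.6%, against 72.3% and 35.7%. GAGGAA, the core bound by PU.1, was in 26.5%, against 25.4% and 28.3%, and CCAAT in 39.1%, against 34.2% and 37.4%. Each motif was searched on both strands, and a match is a description of letters, not of a bound site.

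**Figure D5:**
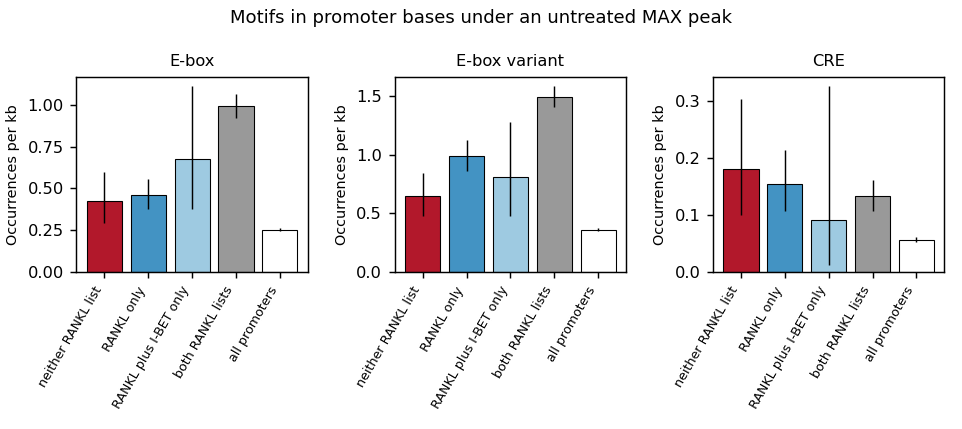
Occurrences per kb of the E-box CACGTG, its variant CACGCG and the CRE in promoter bases under untreated MAX peaks, for 4 classes of untreated regions, and in all promoter windows (bars, with exact Poisson 95% intervals). Under regions in neither RANKL list the E-box occurred 0.424 times per kb, against 0.992 under regions in both RANKL lists.

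The median distance from a region to the nearest peak of either RANKL list was 19583 bp, with 44 of the 1241 within 500 bp and 427 within 10 kb. Just inside the rule stood a region on chromosome 4 (152832873 to 152833340), 40 bp from such a peak, and the start of Atp6v1a and Naa50 on chromosome 16, 46 bp away. Next came 2 regions on chromosome 16, at 25042536 and at 52470757, 72 and 103 bp away, and a region inside Wdr91, 110 bp away. Just outside it the untreated peak overlapped a peak of a RANKL list by 6 bp on chromosome 7 (97748917 to 97749301), by 89 bp at Rock2, by 97 bp at Kansl1 (listed with the combination and not with RANKL), by 108 bp at Atp5j with Gabpa and by 116 bp inside Ammecr1l. In 40 of the 7251 other untreated regions the highest-scoring untreated peak itself overlapped no RANKL-list peak, and the region was joined to one through another peak.

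The widest untreated peaks were 1016 bp at Eri1 (an exonuclease for histone mRNA ends), 883 bp on chromosome 19 (54151025 to 54151907), 865 bp at the non-coding gene Gm38729, 832 bp at Mblac1 and 823 bp at Ldah (a lipid droplet hydrolase). The region on chromosome 19 was not listed with I-BET. Another untreated MAX region lay within 10 kb of 27.3% of the 1241 (24.9 to 29.9), against 25.4% of the regions in both RANKL lists.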

How the data were processed

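ChIP-seq peak lists of MYC and MAX were analysed in 4 treatments of RAW264.7 cells, grouped by sample title. Bowtie2 2.3.4.1, MACS2 2.1.1.20160309 and the builds mm10 and GRCm38 are named in the submitters' processing notes. For calling thresholds, input and duplicates the handling is not given in the sources used here. Each score as deposited is the authors' value per peak, and every deposited row joins peaks of 3 call sets whose nature is not stated. Input libraries have no list here. Depth is unknown.

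Starts were raised by 1 to count from 1. Lists were merged and overlapped at 1 bp or more. The highest-scoring untreated peak stood for a region in rank, position and sequence. Gene positions and promoters are from RefSeq GRCm38.p6. The planned unit was a gene end, since no strand was foreseen; where the promoter table gave a start, the start replaced it. Of 1029 list entries 1028 matched. The named genes are those at the 25 highest-scoring regions at a protein-coding start, regions with a MYC peak, the 5 widest, the 5 top regions not with I-BET, the 5 top regions far from genes, up to 4 genes per list and 5 on either side of the rule. Genes named beyond this were chosen after their values were seen. Members and lists were chosen with earlier results of these data known. Alternatives covered score, width, overlap, distance, unit and window. Intervals are exact at 95% and cover counting error only.

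Tables, intervals and plots were made in Python 3.11.15 (pandas 2.3.3 with numpy 2.4.6, scipy 1.17.1 for intervals, matplotlib 3.10.9 for plots). The merging was tested on simulated data: of 8839 placed peaks, 1318 of 1324 known members were recovered, with 0 differences from bedtools 2.31.1. Simulated I-BET peaks lay at random positions, so the recovery does not cover the joining of regions through I-BET peaks seen in the real lists.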

Additional observations from a re-analysis of the deposited data

How the results depend on the processing

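Of 42 recomputed values 32 stayed within the interval of the reported value or within 1.5 times its count, 10 moved and 0 reversed. Restricting the untreated list to scores at or above its median left 173 regions, with 31.2% at a gene start and a median rank of 3492, which follows from the restriction. With reciprocal overlap of 50% required, 92.0% were listed with I-BET and 42.2% lay at a start. With absence from the RANKL list alone the median rank was 6732.5. The share at a start was 31.0% with a window of 0.5 kb, 40.4% with 2.5 kb and 28.4% when only genes in the promoter table counted, an alternative added after seeing the data. With as many top I-BET peaks as the untreated list holds, 32.1% were listed with I-BET. Merging without the I-BET list, also added later, gave 1325 regions. No paired analysis was possible because each treatment has 1 list and the labels give no replicate numbers. The list length and unknown depth of each library limit what absence from a list can show.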

Other observations

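Regions in neither RANKL list made up 11.6% of the untreated MAX regions on chromosome 3 (8.75 to 15.0, exact interval) and 18.7% on chromosome 14 (14.2 to 23.8), the lowest and highest shares among the autosomes. On chromosome X it was 16 of 71 (22.5%, 13.5 to 34.0). The share over all untreated regions, 14.6%, lies inside each of these 3 intervals. An untreated peak of these regions overlapped the hairpins of 3 microRNA genes, Mir5133 on chromosome 9 at rank 3834, Mir6993 on chromosome 19 at rank 4952 and Mir7653 on chromosome 11 at rank 7623.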
